A study of Mus musculus with 11 samples.

Results

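The promoter windows of the vomeronasal receptor genes were examined for reads of ST18 chromatin immunoprecipitation (ChIP) and of its input. The members were all windows of the deposited promoter table whose gene symbol begins with Vmn1r or Vmn2r, 332 of 21881 windows, of which 209 belong to the Vmn1r class and 123 to the Vmn2r class. The choice was by symbol, but the family was proposed with results of these counts known, so the values are given as a description. ST18 belongs to the MYT1 group of DNA-binding zinc finger proteins. The 2 ChIP samples, with HA as the ChIP target named in the labels, and the 1 Input sample of genomic DNA came from cultured mouse cells called TN, listed as brain cells, with no genotype, agent or time given. The sample type of all 3 is in vitro, while their protocol fields repeat the embryo electroporation and RNA extraction of the RNA samples, and the Input sample also carries the HA ChIP molecule tag. The table holds 1 ST18 column and 1 Input column, so nothing below has a replicate, and the labels do not say which ChIP library or libraries fill the ST18 column. Of the member symbols, 9 carry the ending -ps, used for pseudogenes. The 8 RNA samples (4 ST18 knockdown, 4 non-targeting control) were not analysed here, so the cell type was not checked against expressed markers.

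Vomeronasal receptors detect pheromones and other social odours in the vomeronasal organ, a sense organ in the nose of most mammals. Vmn1r genes encode receptors of apical sensory neurons that signal through the G protein subunit encoded by Gnai2, and Vmn2r genes encode receptors with a long extracellular domain in basal neurons that signal through that encoded by Gnao1. Both classes lie in tandem arrays that have expanded by gene duplication in rodents, so neighbouring genes are often close copies of each other.

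Whether a promoter has a close copy elsewhere went with the read counts, and promoters that show this are printed first, chosen after their values were seen. RefSeq gives a promoter of 300 bases (250 before to 50 after the start, build GRCm38.p6) for 291 of the 332 members. The position of the 1000 bp count window around the start is not given in the sources used here, and the submitters' processing notes name the older build mm9, so the 300 bases stand for the gene and may cover only some of its window. Each promoter was divided into words of 50 bases, the tag size in the header of the deposited peak list, and a word was called shared when it also occurs, on either strand, in the promoter of another gene at another position. In the sequences, capitals mark bases outside every shared word and lower case marks bases inside one.

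The first set shows copies without any read in either column. Vmn1r93 (chr7:20139039-20139338, minus strand) has the same 300 bases as Vmn1r114 and Vmn1r126, Vmn1r47 (chr6:90021638-90021937, plus strand) the same as Vmn1r48, and Vmn2r31 (chr7:7399578-7399877, minus strand) the same as Vmn2r33. All 7 windows held 0 ST18 and 0 Input reads.
Vmn1r93: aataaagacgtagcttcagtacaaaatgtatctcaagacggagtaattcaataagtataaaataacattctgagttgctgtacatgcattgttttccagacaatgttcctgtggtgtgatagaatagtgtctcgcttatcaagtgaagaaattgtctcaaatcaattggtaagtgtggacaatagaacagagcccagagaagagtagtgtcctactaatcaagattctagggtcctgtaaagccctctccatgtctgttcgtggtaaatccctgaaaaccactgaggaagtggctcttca
Vmn1r47: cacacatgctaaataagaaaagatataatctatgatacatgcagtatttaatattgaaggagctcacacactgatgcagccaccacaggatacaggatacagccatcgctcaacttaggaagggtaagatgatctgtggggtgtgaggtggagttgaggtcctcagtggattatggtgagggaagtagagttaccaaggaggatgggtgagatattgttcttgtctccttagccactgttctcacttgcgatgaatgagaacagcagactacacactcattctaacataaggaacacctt
Vmn2r31: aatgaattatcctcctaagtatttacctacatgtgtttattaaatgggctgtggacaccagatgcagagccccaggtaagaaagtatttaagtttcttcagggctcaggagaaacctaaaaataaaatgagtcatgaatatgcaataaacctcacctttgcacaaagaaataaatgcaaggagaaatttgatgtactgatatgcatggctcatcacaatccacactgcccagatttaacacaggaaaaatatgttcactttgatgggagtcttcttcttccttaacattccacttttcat
These promoters are in lower case throughout. Vmn1r93 shares words with the promoters of 19 other genes, Vmn2r31 with 13 and Vmn1r47 with 1.

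The second set shows promoters with little or no shared sequence. Vmn1r65 (chr7:6010961-6011260, minus strand) held the most reads of its class, 20 ST18 and 17 Input reads. Vmn1r226 (chr17:20687258-20687557, plus strand), with 25 and 2, had the highest log2 enrichment of any member. Vmn2r2 (chr3:64137431-64137730, minus strand), with 24 and 2, had the highest of its class.
Vmn1r65: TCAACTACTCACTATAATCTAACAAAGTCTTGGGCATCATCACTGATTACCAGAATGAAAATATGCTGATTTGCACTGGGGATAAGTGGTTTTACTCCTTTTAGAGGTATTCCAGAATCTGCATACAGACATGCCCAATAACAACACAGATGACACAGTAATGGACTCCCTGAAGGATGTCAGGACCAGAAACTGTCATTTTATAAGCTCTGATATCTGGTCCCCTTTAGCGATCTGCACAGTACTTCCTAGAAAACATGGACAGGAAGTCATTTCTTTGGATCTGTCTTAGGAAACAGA
Vmn1r226: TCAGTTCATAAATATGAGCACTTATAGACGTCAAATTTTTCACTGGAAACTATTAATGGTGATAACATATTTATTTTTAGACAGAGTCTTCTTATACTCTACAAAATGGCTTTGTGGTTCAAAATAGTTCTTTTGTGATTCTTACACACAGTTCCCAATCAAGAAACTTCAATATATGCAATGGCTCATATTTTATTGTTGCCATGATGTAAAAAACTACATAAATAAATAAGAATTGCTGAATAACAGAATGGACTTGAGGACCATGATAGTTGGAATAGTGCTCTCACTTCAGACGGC
Vmn2r2: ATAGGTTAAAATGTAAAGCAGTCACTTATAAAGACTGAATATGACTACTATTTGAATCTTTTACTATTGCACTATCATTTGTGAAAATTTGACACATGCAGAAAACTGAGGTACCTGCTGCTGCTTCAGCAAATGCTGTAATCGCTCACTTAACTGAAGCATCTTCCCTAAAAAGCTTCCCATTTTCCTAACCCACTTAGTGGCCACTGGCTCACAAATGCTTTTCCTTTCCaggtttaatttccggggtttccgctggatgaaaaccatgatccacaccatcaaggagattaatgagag
Vmn1r65 and Vmn1r226 are in capitals throughout, and Vmn2r2 has 232 of 300 bases in capitals.

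The third set holds members that depart from that pattern. Vmn2r34 (chr7:7689349-7689648, minus strand) is identical to Vmn2r45 over the 300 bases, yet their windows held 6 and 3 ST18 reads and 0 and 1 Input reads. Vmn2r116 (chr17:23384553-23384852, plus strand), known as a receptor for the male tear peptide ESP1, held 10 ST18 and 5 Input reads with 53.0% of its words shared. Vmn2r96 (chr17:18581477-18581776, plus strand) held no reads with no word shared.
Vmn2r34: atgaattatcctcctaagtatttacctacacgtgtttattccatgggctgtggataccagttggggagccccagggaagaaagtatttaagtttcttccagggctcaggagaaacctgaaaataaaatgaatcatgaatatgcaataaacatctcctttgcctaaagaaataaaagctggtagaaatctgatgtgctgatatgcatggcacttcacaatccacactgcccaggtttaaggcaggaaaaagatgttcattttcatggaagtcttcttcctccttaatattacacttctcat
Vmn2r116: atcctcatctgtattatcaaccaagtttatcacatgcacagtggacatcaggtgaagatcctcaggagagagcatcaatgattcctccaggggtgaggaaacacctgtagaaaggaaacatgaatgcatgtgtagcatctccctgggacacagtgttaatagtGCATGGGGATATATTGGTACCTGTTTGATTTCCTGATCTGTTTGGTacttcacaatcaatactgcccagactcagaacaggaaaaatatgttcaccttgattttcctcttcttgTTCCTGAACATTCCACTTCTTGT
Vmn2r96: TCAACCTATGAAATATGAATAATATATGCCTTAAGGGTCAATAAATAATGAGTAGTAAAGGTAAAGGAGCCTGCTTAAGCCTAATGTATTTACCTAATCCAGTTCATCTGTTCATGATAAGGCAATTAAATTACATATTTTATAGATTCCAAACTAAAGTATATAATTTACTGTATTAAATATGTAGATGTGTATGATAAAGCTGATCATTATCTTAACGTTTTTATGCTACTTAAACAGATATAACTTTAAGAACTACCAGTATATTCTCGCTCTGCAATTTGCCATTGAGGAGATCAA
The 69 capitals of Vmn2r116 fall in a pair of separate stretches, and Vmn2r96 is in capitals throughout.

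Windows without reads were common among the receptors. Of the 332 windows, 81 held no read in either column, 24.4% (exact Clopper-Pearson 95% interval 19.9 to 29.4), against 442 of the 21549 other windows (2.05%, 1.87 to 2.25). The members are 1.52% of all windows and 15.5% of the 523 windows without reads. Vmn1r had 57 of 209 such windows (27.3%, 21.4 to 33.8) and Vmn2r 24 of 123 (19.5%, 12.9 to 27.6), and these intervals overlap. A further 44 members held 1 to 5 reads and 52 held more than 20. In a window without reads, counting error allows up to 3 in each column. Windows that are copies of each other are not independent, so these intervals cover counting error only.

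**Figure D1:**
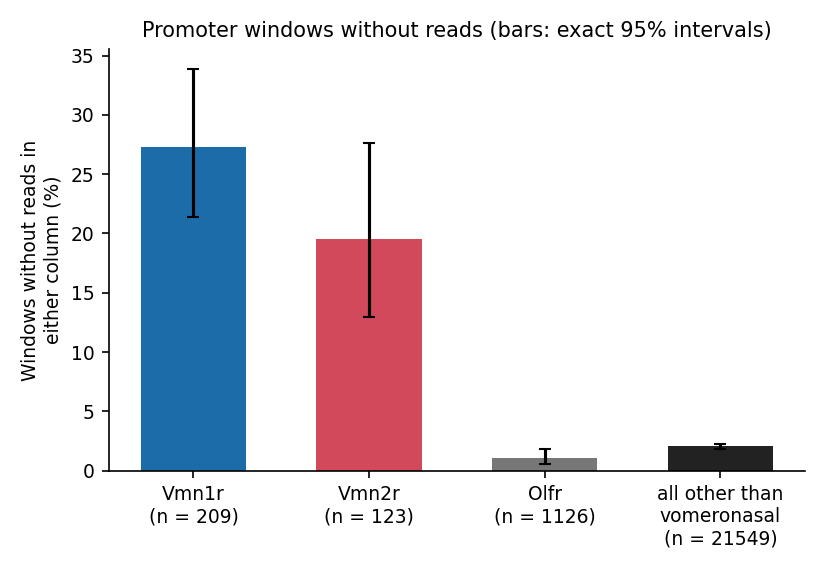
Percentage of promoter windows with no read in either column for Vmn1r, Vmn2r, olfactory receptors (Olfr) and all windows other than vomeronasal, with exact 95% binomial intervals. Vmn1r (27.3%) and Vmn2r (19.5%) stand above Olfr (1.07%) and the other windows (2.05%).

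The olfactory receptors (Olfr), the other large chemoreceptor family of the mouse nose, did not share this feature. Of their 1126 windows, 12 held no reads (1.07%, exact interval 0.552 to 1.85). The trace amine-associated, taste and formyl peptide receptor windows (Taar, Tas1r, Tas2r and Fpr) had 0 of 59 without reads. Taking 3 counts as the limit of a count of 0, which is not an exact interval, this allows a share of up to 5.08%. Some formyl peptide receptors are also expressed in vomeronasal neurons.

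Members without reads and shared promoter words went together. Of the 68 members without reads that have a promoter sequence, 57 had more than 50% of their words shared and 37 had every word shared. Read from the sequence side, 57 of the 70 members with more than 50% of words shared held no reads (81.4%, exact interval 70.3 to 89.7), against 9 of 89 with some words but at most 50% shared (interval 4.73 to 18.3%) and 2 of 132 with none shared (1.52%, 0.184 to 5.37). The median number of reads in both columns together was 0, 7 and 16 in these 3 groups. The 2 windows with no shared word and no reads were Vmn1r148 and Vmn2r96.

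The same order was seen outside the family. Among promoters of other genes, 152 of 266 with more than 50% of words shared held no reads (57.1%, exact interval 51.0 to 63.2), against 42 of 13659 with none shared (0.307%, 0.222 to 0.415). Within the classes, 44 of 47 such Vmn1r windows (93.6%, 82.5 to 98.7) and 13 of 23 such Vmn2r windows (56.5%, 34.5 to 76.8) held no reads. How the authors treated reads that map to several places is not given in the sources used here, and its part in these counts was not tested. The comparison covers promoters of the RefSeq table, so a word called not shared may still occur elsewhere in the genome.

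**Figure D2:**
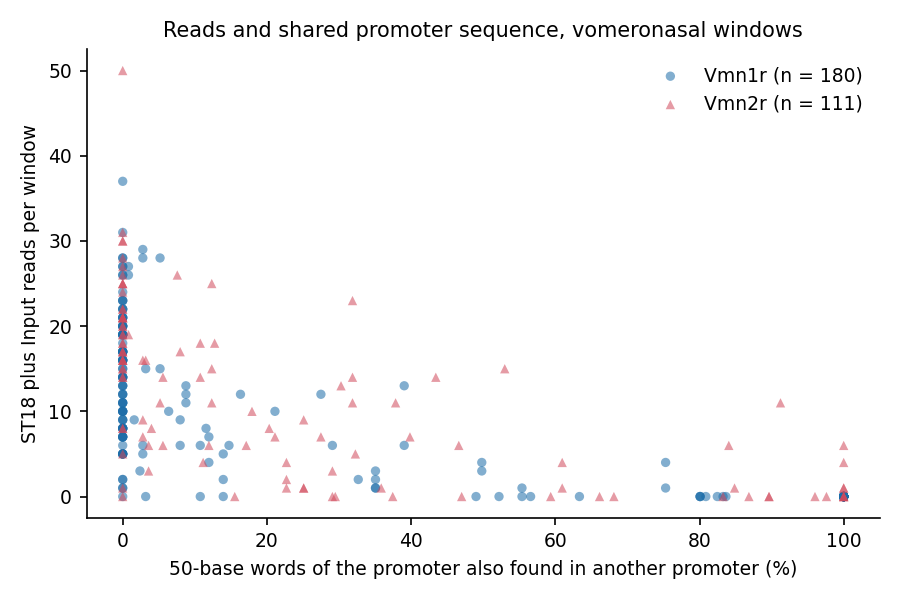
Reads of both columns together in each vomeronasal window (vertical) against the percentage of the promoter's 50-base words found in another gene's promoter (horizontal), for 180 Vmn1r and 111 Vmn2r members with a promoter sequence. Of the 45 plotted members with over 20 reads, 37 share no word and the most shared is Vmn2r88 (23 reads, 31.9%), and of the 70 members above 50% the highest is Vmn2r116 with 15 reads.

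Whole promoters were repeated in 16 sets of members, 3 sets of 3 genes and 13 pairs, with 35 genes in all (29 Vmn1r and 6 Vmn2r). Of these 35 windows, 32 held no reads, and the 3 with reads were Vmn2r34, Vmn2r45 and Vmn2r49, with at most 6. The other members with more than 50% of words shared and more than 5 reads were Vmn2r114 (10 ST18 and 1 Input reads, 91.2% shared), Vmn2r112 (5 and 1 reads, 84.1% shared) and Vmn2r116. These 3 are neighbours of Vmn2r113 and Vmn2r115, which held no reads, with 29.5% and 96.0% of words shared.

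The windows without reads lay side by side on chromosome 7. Of the Vmn1r members with a promoter sequence there, 46 of 90 held no reads (51.1%), and 43 had more than 50% of words shared. On the other chromosomes 3 of 90 Vmn1r windows held no reads (3.33%). In the order of GRCm38.p6, 32 neighbouring Vmn1r windows in a row, from Vmn1r114 to Vmn1r165 (chr7:20812137-23217381), were without reads, and 11 in a row from Vmn1r91 to Vmn1r112 preceded them. Between these runs lay Vmn1r113, with 0 ST18 and 2 Input reads. Members without a promoter sequence had no position and were left out of the runs. Vmn2r had 15 of 45 windows without reads on chromosome 7 (33.3%) and 4 of 66 elsewhere (6.06%). Of the Vmn2r runs on chromosome 7, the first held 3 windows (Vmn2r31 to Vmn2r33) and each of the others held 5 (Vmn2r35 to Vmn2r43 and Vmn2r40 to Vmn2r48 in chromosome order).

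The windows with reads were shallow too. Over all 209 Vmn1r windows the median was 5 ST18 reads (interquartile range 0 to 11, highest 25) and 2 Input reads (0 to 4, highest 17). Over the 123 Vmn2r windows it was 7 ST18 reads (1 to 13, highest 41) and 2 Input reads (0 to 5, highest 12). All 21881 windows had medians of 20 and 7. Among windows with at least 1 read the medians were 8 and 4 for Vmn1r (152 windows) and 10 and 3 for Vmn2r (99 windows), still below the typical promoter in both columns.

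**Figure D3:**
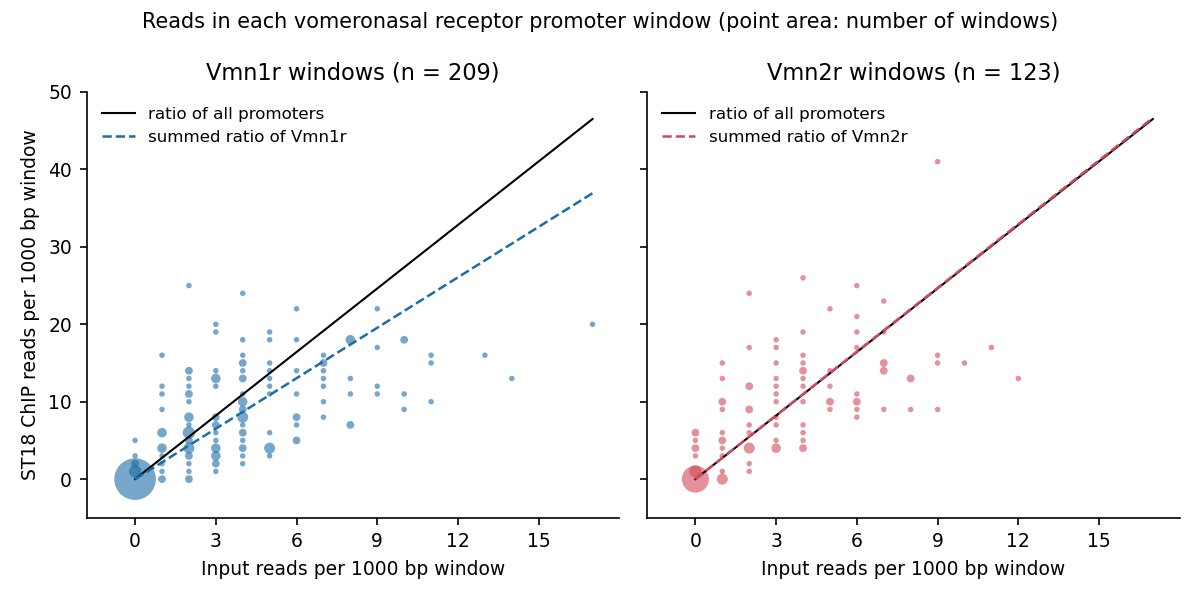
ST18 ChIP reads against Input reads in each of the 209 Vmn1r and 123 Vmn2r windows, with point area proportional to the number of windows at that pair of counts. The solid line is the ratio of all promoters (2.74) and the dashed line the summed ratio of the class (2.17 for Vmn1r and 2.74 for Vmn2r).

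Summed over windows, the Vmn1r class held fewer ST18 reads per Input read than promoters in general, while over all Vmn2r windows no difference was detectable at this depth. Vmn1r held 1362 ST18 and 627 Input reads, a ratio of 2.17 against 2.74 for all promoters, or 0.794-fold (exact 95% interval 0.722 to 0.874). Vmn2r held 999 ST18 and 364 Input reads, a ratio of 2.74, or 1.003-fold (0.889 to 1.13). Over its 26 windows with more than 5 Input reads, Vmn2r stood at 0.830-fold (0.698 to 0.989), which excludes 1. The reference for this value was all promoters with more than 5 Input reads. Choosing windows in this way acts on the Input count, the denominator of the ratio, so the value alone gives no direction for ST18. The Vmn1r ratio was 0.791 times that of Vmn2r (exact conditional interval 0.677 to 0.925). The olfactory receptors lay between the classes at 0.881-fold (0.853 to 0.910). These intervals treat reads as independent and cover counting error only.

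The difference between the classes kept its direction, with wider intervals, in several subsets of members added after the data were seen. In other splits, by single chromosome or by band of GC content (given further below), it did not always do so. Among members with no shared word the Vmn1r ratio was 0.861 times that of Vmn2r (exact conditional interval 0.704 to 1.05). It was 0.745 times (0.534 to 1.04) on chromosome 7 and 0.868 times (0.716 to 1.05) on the other chromosomes. Each of these 3 intervals includes 1, so the difference between the classes was not detectable there at this depth. Over all members with a promoter sequence the Vmn1r ratio was 0.836 times that of Vmn2r (0.709 to 0.985). Without Vmn2r1 to Vmn2r7 it was 0.820 times (0.699 to 0.960), and both of these intervals exclude 1. By chromosome, the Vmn1r ratio was 0.807 of the all-promoter ratio on chromosome 13 (0.663 to 0.985), 0.783 on chromosome 6 (0.653 to 0.943), 0.868 on chromosome 7 (0.711 to 1.06) and 0.968 on chromosome 17 (0.696 to 1.36). The Vmn2r ratio was 0.785 on chromosome 6 (0.489 to 1.29), 1.17 on chromosome 7 (0.903 to 1.52) and 0.880 on chromosome 17 (0.707 to 1.10). The classes were thus nearly level on chromosome 6, and their order was reversed on chromosome 17, with overlapping intervals.

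**Figure D4:**
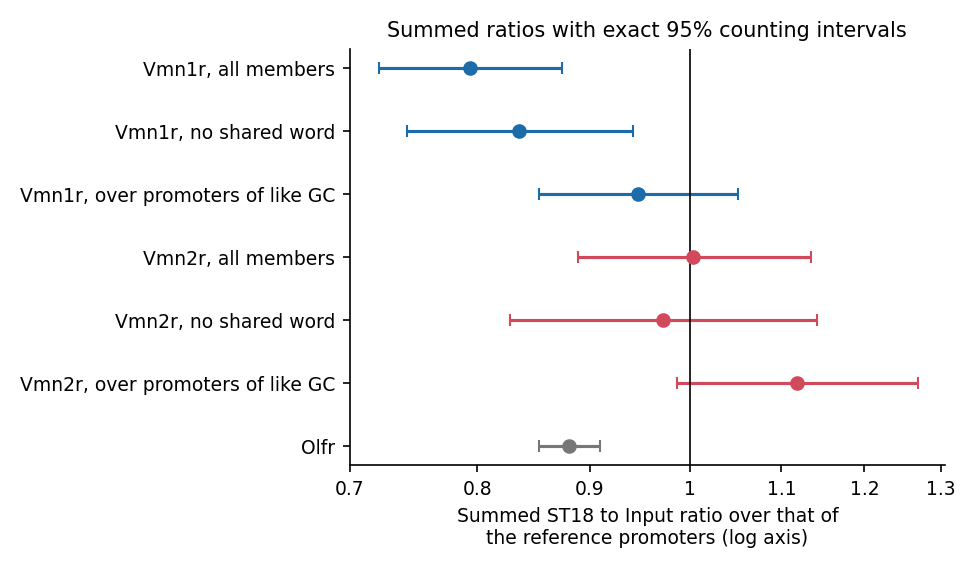
Summed ST18 to Input ratio of each receptor class over that of the reference promoters, on a log axis, with exact 95% counting intervals. The reference is all promoters, except in the rows of like GC, where Vmn1r stands at 0.947 and Vmn2r at 1.12 and both intervals include 1.

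The receptor promoters are poor in G and C. Their 300 bases had a median GC content of 36.0% for Vmn1r and 38.0% for Vmn2r, against 57.3% over the 14683 windows of the table with a promoter sequence, and a median of 1 CpG against 15. The ST18 to Input ratio of other promoters also moved with GC content: it was 2.29 in the band from 30 to 35% (exact interval 2.17 to 2.42), 2.40 from 35 to 40% (2.31 to 2.50), 2.75 from 55 to 60% (2.71 to 2.80) and 2.89 above 70% (2.83 to 2.94). Set against other promoters of the same GC band, Vmn1r stood at 0.947-fold (0.854 to 1.05), Vmn2r at 1.12-fold (0.986 to 1.27) and both classes together at 1.01-fold (0.937 to 1.099), so no deviation was detectable in either class. This comparison was added after the data were seen and uses the 291 members with a promoter sequence.

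**Figure D5:**
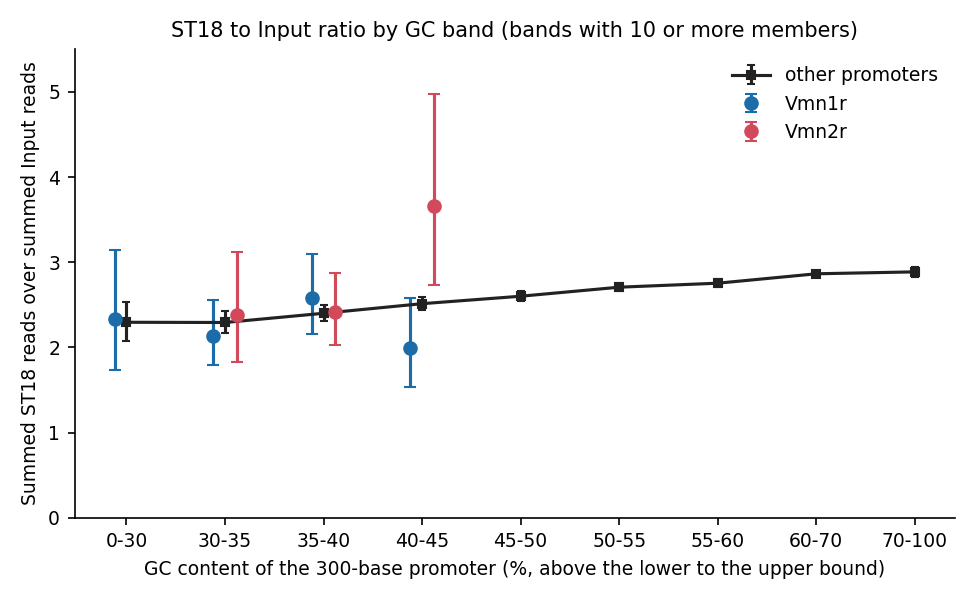
Summed ST18 reads over summed Input reads by GC band of the 300-base promoter, for other promoters (black squares) and for each receptor class in bands with 10 or more members, with exact 95% counting intervals. Other promoters run from 2.30 in the lowest band to 2.89 in the highest, and Vmn2r in the band from 40 to 45% stands apart from them at 3.66 (2.73 to 4.97).

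The Vmn2r promoters with 40 to 45% GC, 24 in number, held 216 ST18 and 59 Input reads, a ratio of 3.66 against 2.51 for other promoters of the band. The 19 Vmn1r promoters of that band lay on the other side, at 1.99 (1.54 to 2.58). This band was singled out after its value was seen. The band from 35 to 40% holds 93 Vmn1r and 65 Vmn2r members, the most of any band. There the ratio was 2.58 for Vmn1r (2.16 to 3.10) and 2.41 for Vmn2r (2.03 to 2.87), against 2.40 for other promoters. The order of the classes was thus reversed in this band, with overlapping intervals. From 30 to 35% the ratio was 2.14 for Vmn1r and 2.38 for Vmn2r.

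Matching on Input counts gave a lower value, and the direction for the ST18 to Input ratio depended on which column was matched. The members held 0.596 times the ST18 reads of other promoters with the same Input count (exact Poisson interval 0.572 to 0.620), with 0.548 for Vmn1r (0.520 to 0.578) and 0.675 for Vmn2r (0.634 to 0.718). Matched instead on the ST18 count, they also held fewer Input reads than other promoters, 0.786 times as many (0.738 to 0.836). Matched on the reads of both columns together, the ST18 reads were 0.979 times those of other promoters for Vmn1r (0.928 to 1.03) and 1.04 times for Vmn2r (0.980 to 1.11). ST18 reads are part of that total, which draws these values towards 1. Their Poisson intervals take no account of the fixed total and are too wide, so whether they include 1 decides nothing. The count compared thus lay below that of other promoters whichever column was held fixed. For the ST18 to Input ratio, matching on Input and matching on ST18 point opposite ways. The Input-matched value alone therefore gives no direction for ST18.

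At an Input count of 0 most members had no ST18 reads either. Of the 66 Vmn1r windows without Input reads, 57 also had no ST18 reads (86.4%), as had 24 of 35 Vmn2r windows (68.6%), 442 of 658 other windows (67.2%) and 12 of 41 olfactory receptor windows (29.3%). The highest ST18 count in a member without Input reads was 6. At 3 to 5 Input reads, Vmn1r windows held 9.08 ± 5.43 ST18 reads (SD over 61 windows), Vmn2r 11.2 ± 5.53 (33 windows), olfactory receptors 10.99 ± 5.85 (442 windows) and the promoters other than vomeronasal 17.7 ± 8.23 (4683 windows). At 6 to 9 Input reads the means were 12.7 for Vmn1r and 15.4 for Vmn2r, against 14.3 for olfactory receptors and 21.6 for the promoters other than vomeronasal.

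The authors' deposited table also gives a log2 enrichment per window, which compares the scaled ST18 count with the Input count after 16 is added to each. With so few reads this value stays near 0: its median was 0 in both classes, against 0.042 over all windows, and it ranged in the members from −0.50 to 0.54. No member reached a size of 0.58 in either direction, against a background of 1.15% of all windows that far above 0 and 0.219% that far below. None reached 1, against 0.0548% of all windows above and 0% below. With a pseudocount of 8 in place of 16, 5 members lay past 0.58 upwards and 5 downwards (background 6.98% and 2.6%), and with a pseudocount of 1 these were 58 and 66 (24.1% and 13.1%). A two-sided exact binomial test per window, with Benjamini-Hochberg adjustment over all windows, called 0 members, against 0.0366% of all windows called higher and 0.00914% lower. At an unadjusted exact p under 0.05, 2 members were higher (0.602%, background 2.49%) and 12 lower (3.61%, background 4.39%). The test sets the reads of the ST18 column against those of the Input column and says nothing of conditions.

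Among Vmn1r members the highest log2 enrichments were those of Vmn1r226 at 0.54 (25 ST18 against 2 Input reads, 4.57-fold the ratio of all promoters, exact 95% interval 1.14 to 39.8), Vmn1r199 at 0.40 (16 against 1), Vmn1r40 at 0.36 (24 against 4), Vmn1r87 at 0.34 (20 against 3) and Vmn1r195 at 0.32 (19 against 3). The lowest were Vmn1r198 at −0.50 (13 against 14 reads, 0.339-fold, 0.147 to 0.779), Vmn1r65 at −0.45 (20 against 17), Vmn1r89 at −0.43 (10 against 11), Vmn1r1 at −0.40 (9 against 10) and Vmn1r215 at −0.37 (16 against 13). None of these 10 passed adjustment (exact test, adjusted p from 0.458 for Vmn1r198 to 0.918 for Vmn1r195). They were picked by the same counts, so their values are a description. The Vmn1r windows with the most reads were Vmn1r65, Vmn1r46 (22 against 9, log2 −0.0045) and Vmn1r215.

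Among Vmn2r members the highest were Vmn2r2 at 0.52 (24 ST18 against 2 Input reads, 4.39-fold, 1.09 to 38.3), Vmn2r3 at 0.41 (26 against 4), Vmn2r29 at 0.38 (41 against 9), Vmn2r87 at 0.38 (15 against 1) and Vmn2r67 at 0.35 (17 against 2). The lowest were Vmn2r10 at −0.40 (13 against 12, 0.396-fold, 0.167 to 0.949), Vmn2r14 at −0.35 (9 against 9), Vmn2r104 at −0.29 (9 against 8), Vmn2r94 at −0.24 (17 against 11) and Vmn2r1 at −0.24 (15 against 10). Their adjusted p ran from 0.603 for Vmn2r10 to 0.908 for Vmn2r29 (exact test). Most reads were held by Vmn2r29, Vmn2r18 (25 against 6, log2 0.25) and, level at 30 reads, Vmn2r3 and Vmn2r108 (23 against 7). The first listed RefSeq promoter of Vmn2r29 has a GC content of 62.3%, far above the class median.

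Vmn2r1 to Vmn2r7 form a separate family of V2R receptors that are co-expressed with other V2Rs in the same neuron. Vmn2r2 and Vmn2r3 were among the highest of the class, and Vmn2r1, at −0.24 with 15 ST18 against 10 Input reads, among the lowest. Vmn2r4 stood at 0.32 (13 ST18 against 1 Input reads), while Vmn2r5 held no reads, Vmn2r6 held 4 against 0 and Vmn2r7 held 0 against 1, both of these last with 61.0% of words shared. Summed, the 7 windows held 82 ST18 and 18 Input reads, a ratio 1.67 times the all-promoter value (0.991 to 2.95). Vmn2r1 holds 10 of those 18 Input reads, and without it, an alternative added after the values were seen, the ratio was 3.06 times the all-promoter value (1.47 to 7.38). The other 116 Vmn2r windows stood at 0.969-fold (0.855 to 1.099), and the ratio between these groups was 1.72 (1.0045 to 3.09).

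The receptors with known ligands named here held reads, as did 251 of all 332 members, and some held very few. Vmn1r51, a receptor for the urinary volatile 2-heptanone, held 2 ST18 and 2 Input reads, with 75.3% of its words shared. Vmn1r85 and Vmn1r89, which respond to sulfated steroids, held 14 against 7 and 10 against 11 reads. Vmn2r26, which responds to peptides that bind MHC molecules, held 1 ST18 and 0 Input reads.

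The promoters of vomeronasal signalling and differentiation genes held more reads than those of the receptors. Of 25 listed symbols, 24 matched a window, all with reads (11 to 48 in both columns together). Their median of 27 reads was near the 28 of all windows, against 8 for the receptors. Summed, they stood at 1.02-fold the all-promoter ratio (0.856 to 1.22). None reached 0.58 in either direction, none was called by the exact test, and 12 of 24 lay above the median log2 of all windows. Trpc2, the channel that carries the sensory current, stood at −0.24 (19 ST18 against 12 Input reads), Gnai2 at 0.25 (22 against 5), Gnao1 at −0.18 (15 against 9) and Omp, the olfactory marker protein, at 0.064 (25 against 9). Emx2, a homeobox gene of olfactory neurons and cortical progenitors, was highest at 0.47 (39 against 7). H2-M10.6, one of the MHC-like genes expressed with Vmn2r receptors, was lowest at −0.32 (10 against 9).

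Members of the MYT1 family are known to recognise a core of letters AAAGTT, so the promoters were searched for AAAGTT and for the longer AAAGTTT, which contains it, on both strands. AAAGTT was present in 41 of 180 Vmn1r promoters (22.8%) and 40 of 111 Vmn2r promoters (36.0%), against 13.2% of the 14683 promoters of the same length. At the GC bands of the members, 28.8% and 27.3% of other promoters hold it. AAAGTTT was present in 22 Vmn1r (12.2%) and 21 Vmn2r promoters (18.9%), against 4.36% of all promoters, and 10.27% and 9.12% of other promoters at the GC bands of each class. Members with AAAGTT had a summed ST18 to Input ratio of 2.40 (exact interval 2.09 to 2.77) and members without it 2.43 (2.21 to 2.68). By class the values lay in opposite directions, at 2.39 with it (1.94 to 2.97) and 2.20 without it (1.95 to 2.485) for Vmn1r, and 2.41 (2.001 to 2.92) and 2.93 (2.48 to 3.49) for Vmn2r, with overlapping intervals. For AAAGTTT the ratios were 2.08 (1.72 to 2.53) and 2.50 (2.29 to 2.73), with 2.05 and 2.28 for Vmn1r, and 2.11 (1.64 to 2.72) and 2.91 (2.52 to 3.38) for Vmn2r. Over all promoters the ratios were 2.68 with AAAGTT and 2.75 without it, and 2.71 with AAAGTTT and 2.74 without it. Ratios with and without a match were not compared at like GC content. Promoters that are copies of each other carry the same matches, and a match is a description of the letters, not a binding site.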

How the data were processed

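Read counts in 1000 bp windows, as deposited by the authors, came in 1 ST18 and 1 Input column. The deposited log2 enrichment equals the log2 of (0.4055 times ST18 plus 16) over (Input plus 16), recomputed within 1e-06 in every window. Per the submitters' processing notes the build was mm9 and the tools included MACS2 2.0.10.20120913, Bowtie, edgeR, HTSeq 0.5.4p1 and TopHat2 2.0.8; which of them made this table, and how reads with several matches or duplicates were treated, is not given in the sources used here. Summed, the promoter windows held 438960 ST18 and 160443 Input reads, which are not library totals. Of the peak list only the header's tag size (50) was used, since the windows carry no positions to compare with peaks.

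Counts were summed over windows, with exact 95% intervals for counting error (SciPy 1.17.1, Python 3.11.15). Without molecular identifiers, reads may be copies of 1 molecule. Each window was compared with the ratio of all promoters by an exact binomial test, adjusted by Benjamini-Hochberg. It was also tested on simulated data, with changes placed only in windows deeper than nearly all receptor windows. That simulation therefore says nothing of how well the test can call members. Matching used the mean of other promoters with the same count.

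The genes named were the 5 highest and 5 lowest log2 values per class among windows with reads, the 3 with most reads, receptors with known ligands, Vmn2r1 to Vmn2r7 and a signalling list. Members and lists were chosen with earlier results of these data known. Printed sequences, members named for departing from a pattern, word sharing by group and GC bands were chosen after the values were seen. The 8 RNA samples were not analysed here.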

Additional observations from a re-analysis of the deposited data

How the results depend on the processing

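Among the planned settings was a filter that dropped windows of 5 or fewer Input reads and left 38 Vmn1r and 26 Vmn2r windows. It acts on the denominator of the ratio, so the moves it made give no direction for ST18 by themselves. The same filter was applied to the reference promoters. The summed ratio over that of all promoters moved from 0.794 to 0.638 for Vmn1r. For Vmn2r it moved from 1.003 to 0.830 (interval 0.698 to 0.989, so that it no longer includes 1). For both together it moved from 0.871 to 0.711. The median log2 enrichment then went from 0 to −0.19, −0.13 and −0.16, and without windows without reads to −0.031 for Vmn1r and −0.012 for both classes. With olfactory receptors as reference the ratios were 0.901, 1.14 and 0.989, and against promoters of the same GC band, a setting added after seeing the data, Vmn1r stood at 0.947 and both together at 1.01, which turned the direction. The cause was not tested. The share of windows without reads was 27.3% for Vmn1r, 19.5% for Vmn2r and 24.4% for both, against 2.39% of all windows. It became 34.4%, 29.3% and 32.5% for windows with at most 3 reads, against 828 of all 21881 windows. For windows without Input reads it was 31.6%, 28.5% and 30.4%, against 3.47% of all windows. The Input-matched values were 0.548, 0.675 and 0.596, and the values matched on total reads were 0.979, 1.04 and 1.01. These are on unlike scales, since ST18 reads are part of the total, which draws the latter values towards 1. Matched on the ST18 count, Input reads were 0.840, 0.707 and 0.786 times those of other promoters. For the ST18 to Input ratio this is the opposite direction, as the construction swaps the columns. The 0 members past a log2 of 0.58 became 5 higher and 5 lower with a pseudocount of 8 (background 6.98% and 2.6%), and 58 higher and 66 lower with a pseudocount of 1 (24.1% and 13.1%), where a few reads decide the value. The Vmn1r over Vmn2r ratio lay between 0.745 and 0.868 under the 10 alternatives run. Without Vmn2r1 the ratio of Vmn2r1 to Vmn2r7 went from 1.67 to 3.06. The depth limits single windows to several-fold differences. No paired analysis was possible because there was a single ST18 column without a replicate number, so leaving out a replicate could not be run either.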

Other observations

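Some other gene families that lie in tandem arrays also had windows without reads. These families were singled out partly after their values were seen. The major urinary protein genes (Mup), whose products are pheromone carriers and vomeronasal ligands, had 8 of 19 windows without reads (42.1%, exact interval 20.3 to 66.5). The reproductive homeobox genes of the X chromosome (Rhox) had 12 of 32 (37.5%, 21.1 to 56.3) and the alpha-defensin genes of the gut (Defa) 11 of 17 (64.7%, 38.3 to 85.8). The exocrine gland-secreted peptide genes (Esp), which encode tear pheromones, had 0 of 6 (exact interval 0 to 45.9%).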
